A study of Vigna radiata with 18 samples.

Results

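Chromosome 11 of mung bean (Vigna radiata) carried 4134 of the 50238 consensus peaks of open leaf chromatin in this series. Its members are all intervals of the list whose chromosome column names chromosome 11, so no measured value decides membership, but the chromosome was picked with its sparse end and low last-to-first ratio already known, and its ranks below are descriptions of that choice. ATAC-seq marks open chromatin by the cuts of the transposase Tn5, which reaches DNA where nucleosomes are absent or loose. In plant chromosomes such sites are found mostly near genes and their regulatory DNA, whereas repeat-rich DNA around centromeres is packed into heterochromatin and holds few of them. Density, width and spacing of peaks along a chromosome therefore draw a map of where its DNA was accessible.

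The 18 libraries came from wild-type seedlings of the cultivar Weilv 9, from the first fully expanded true leaves. In T1 (Pre-conditioned salt stress) plants stood in 100 mM NaCl for 24 h, recovered for 48 h without NaCl and met 100 mM NaCl again, and leaves were taken at 0, 6 and 48 h of that last bath. In T2 (Direct salt stress) plants met 100 mM NaCl with no earlier bath and were sampled at the same 3 times. Each of the 6 groups had 3 libraries. The tissue label is leaf and a second tag reads protoplast, while the protocol describes nuclei from frozen leaf; the list holds no expression values, so the tissue could not be checked against marker genes. All libraries share 1 list of intervals with no height, count or library column, so no value of T1 or T2 exists for any peak of chromosome 11 and the depth behind each peak is unknown. The list has no replicates, and every value below is a description of it with no test; chromosomes are parts of that same list.

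Open chromatin on chromosome 11 was dense, at 110 peaks per Mb over the 37.5 Mb between the first base and the end of the last peak. Of the other 10 chromosomes 9 were sparser, the sparsest being chromosome 5 with 76.8 per Mb, and only chromosome 8 with 112 per Mb was denser. Peaks covered 3.94% of chromosome 11, against 2.63% to 4.11% on the others. The first peak lay at 9214 to 9436, close to the first base, and the last at 37472499 to 37472663. Peaks on chromosome 11 were slightly narrow, with a median width of 284 bp (quartiles 193 and 439 bp), against a median of 292 bp over all peaks of the other chromosomes. By chromosome, 2 of the other 10 had a lower median, the lowest being 279 bp on chromosome 5. Peaks under 200 bp made up 27.2% of chromosome 11 and 24.5% of the other chromosomes.

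Density fell from the first to the last peak in 2 steps, a decline over about the first 30% of the span and an abrupt drop near the end, with an uneven but level stretch between them. In consecutive parts of 20% of the span, chromosome 11 had 138, 116, 108, 111 and 77.8 peaks per Mb. The base share under peaks took the same course, with 5.07%, 4.04%, 3.94%, 3.94% and 2.70%. In consecutive parts of 10% the values were 145, 132, 128, 104, 117, 100, 101, 121, 112 and 44.0 peaks per Mb. The densest and the sparsest 10% were thus the first and the last, and the parts between 30% and 90% of the span lay at 100 to 121 with no steady fall. The 117 among these was 105 without the peaks of the window described below.

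In bins of 1 Mb, of which 37 were full, the drop came at the last few. The densest bin, 2000001 to 3000000, held 174 peaks, and the sparsest full bin, 35000001 to 36000000, held 6. Between these, the 34 bins that ended before the first long peak-free span held 75 to 174 peaks with a median of 117.5, and none of them was sparser than the bin at 22000001 to 23000000 with its 75. Counts of 114 peaks at 33000001 to 34000000 and 81 at 34000001 to 35000000 were followed by 6 and then 22.

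**Figure D1:**
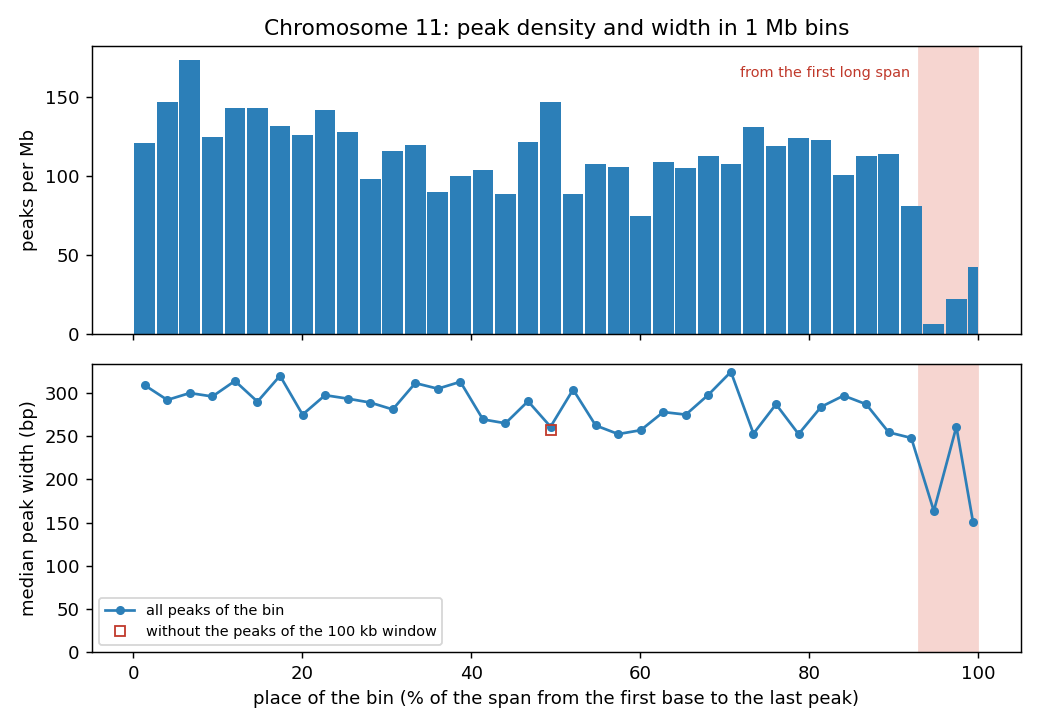
Peak density (upper panel, peaks per Mb) and median peak width (lower panel, bp) of chromosome 11 in 1 Mb bins, by place along the span in %; the shorter last bin is scaled to 1 Mb, the shaded part begins at the first peak-free span of 200 kb or more, and the open square is the bin at 18000001 to 19000000 without the peaks of the 100 kb window. Bins that end before the shaded part hold 75 to 174 peaks, the bin that its edge cuts holds 81, and the first full bin within it holds 6.

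Set against the other chromosomes, the fall was deep. The last 20% of the span had 0.562 times the density of the first 20%, the lowest of the 11 chromosomes; the other 10 ranged from 0.620 on chromosome 9 to 1.75 on chromosome 1. Both ends stood near a limit of the range: 138 peaks per Mb in the first 20% was exceeded on 1 other chromosome only (140 on chromosome 2) and 77.8 in the last 20% was undercut on 1 (71.9 on chromosome 9). From base 34837185 onward the last 20% of chromosome 11 had 18.2 peaks per Mb, and up to that base it had 110, close to the 111 of the 20% before it. With spans of 200 kb or more taken out of the length, the ratio of the last to the first 20% on chromosome 11 was 0.709, which was no longer the lowest: chromosome 9 had 0.620 and chromosome 2 had 0.685. Counted over the last and first 10%, the ratio was 0.304 on chromosome 11, against 0.540 on chromosome 9, the next lowest.

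Peak width declined along chromosome 11 as well. The median width in consecutive parts of 20% was 299, 299, 269, 279 and 265 bp. The last 20% was thus 34 bp narrower than the first 20%, whereas the other 10 chromosomes gave differences between -21 bp (chromosome 2) and 18 bp (chromosome 1). Its 265 bp was the lowest median among the last 20% of the 11 chromosomes, where the others had 285 to 309 bp. The distal peaks alone did not make this rank, because the 535 peaks of the last 20% that lie before the first long span had a median of 275 bp. Peaks of 1 kb or more did not thin out with it. The 5 parts held 21, 8, 27, 23 and 22 of them, the 27 being 15 without the window described below. With the window kept, these were 2.03%, 0.922%, 3.32%, 2.76% and 3.77% of the peaks of each part. All of the last 22 lay before the first long span, beyond which no peak was wider than 852 bp.

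**Figure D2:**
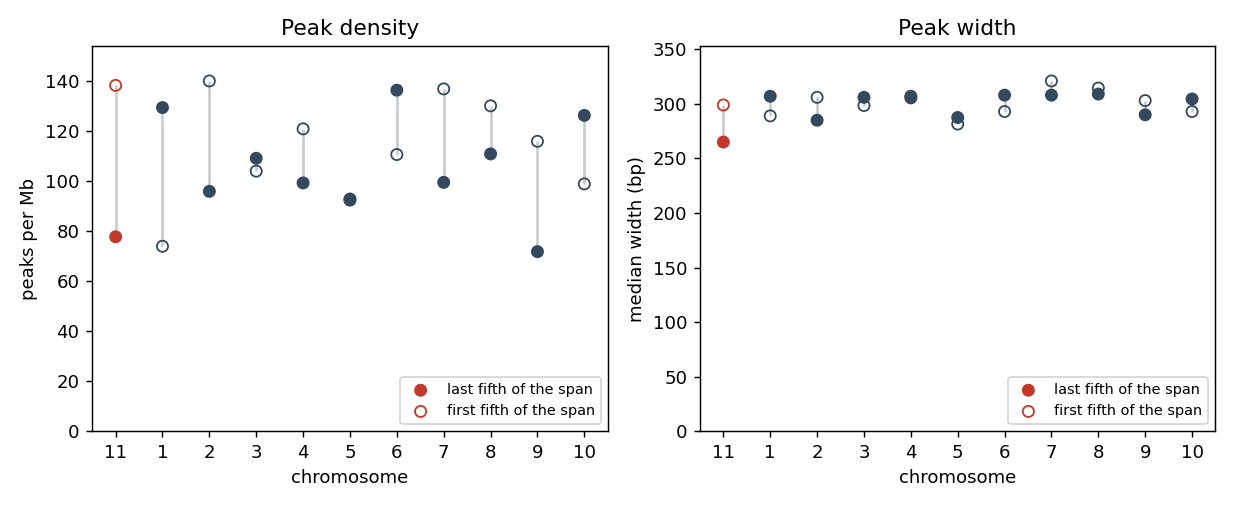
Peak density (left, peaks per Mb) and median peak width (right, bp) in the last 20% (filled) and the first 20% (open) of the span of each chromosome, with chromosome 11 in red and first. Chromosome 11 has 77.8 and 138 peaks per Mb and medians of 265 and 299 bp in the last and first 20%.

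The sparse end began at base 34837185 and ran for 2.64 Mb to the last peak. This was 7.03% of the span and held 48 peaks, 1.16% of those on chromosome 11. Density was 18.2 peaks per Mb there and 117 per Mb in the 34.8 Mb before it, and peaks covered 0.463% and 4.20% of these lengths. All 3 peak-free spans of 200 kb or more of chromosome 11 lay in the sparse end, at 34837185 to 35521464 (684 kb), 35819790 to 36371589 (552 kb) and 36731707 to 37048694 (317 kb), and together they made up 58.9% of it. The first span was bordered by the peak that ends at 34837184 and by a lone peak of 262 bp at 35521465 to 35521726. The longest span below the limit, 146 kb at 35630536 to 35776701, was also in the sparse end. Of the 5 spans of 100 to 200 kb, 2 lay far from it, at 16517339 to 16634936 and 19128627 to 19239584. On the other chromosomes the last 10% of the span held 0 or 1 spans of 200 kb or more, the 1 being on chromosome 3 at 92.2% of its span.

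Ends of the same length on all chromosomes gave the scale of this. A first end starts at base 1 and takes in any stretch before the first peak, which began at 376119 on chromosome 5 and 131352 on chromosome 1. A last end stops at the last peak, since the true chromosome lengths were not known. In the last and the first 2.64 Mb of each of 11 chromosomes, 22 ends in all, the last end of chromosome 11 had the fewest peaks, 48. The next lowest were the first end of chromosome 1 with 182, the last end of chromosome 9 with 190 and the first end of chromosome 5 with 204. The first end of chromosome 11 held 372, which only the first end of chromosome 7 (393) and the last end of chromosome 6 (403) exceeded. The 2 ends of chromosome 11 thus stood near the opposite limits of this range. Median width was 179.5 bp in its last end and 302.5 bp in its first, and the other 20 ends lay between 258 bp (last end of chromosome 9) and 330 bp (first end of chromosome 7).

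Other chromosomes had stretches as sparse, but elsewhere. Their sparsest 2.64 Mb held from 2 peaks on chromosome 1 to 126 on chromosome 3, and chromosomes 2 (28 peaks), 7 (29) and 10 (39) were below the 48 of chromosome 11 too. These stretches were centred between 36.8% of the span on chromosome 10 and 66.8% on chromosome 7, except on chromosome 9, where the stretch with 118 peaks was centred at 90.4%. On chromosome 11 the centre was at 96.5%. Peaks inside the sparse end of chromosome 11 were 105.5 bp narrower in the median than the rest of its peaks (179.5 and 285 bp). The same difference inside the sparsest stretches of the other chromosomes lay between -78 bp (chromosome 7) and 78.5 bp (chromosome 1), the last resting on 2 peaks. Peaks were narrower inside on 8 of the other 10 chromosomes, by 10 to 78 bp, and wider inside on chromosome 1 and on chromosome 9 (314.5 bp inside and 282 bp outside).

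The 3 long spans split the sparse end into 3 blocks of peaks that differed among themselves. The first block, 35521465 to 35819789, held 6 peaks in 298 kb, or 20.1 per Mb. Its widths were 262, 139, 162, 165, 139 and 707 bp, so 4 of 6 were under 200 bp and only the last, at 35819083 to 35819789, was over 300 bp. The second block, 36371590 to 36731706, held 22 peaks in 360 kb, or 61.1 per Mb, with a median width of 261 bp and a range of 130 to 852 bp. By median width and density it was the block nearest to the body of the chromosome before the first long span, which had 285 bp and 117 peaks per Mb. Peaks of 500 bp or more were 5 of 22 (22.7%), against 19.2% in that body. Those under 200 bp were 8 of 22 (36.4%), against 26.8%. Its median gap was shorter, at 2966 bp against 5522 bp. Of its peaks, 16 of 22 lay in 5 runs with gaps under 5 kb, the largest being 5 peaks at 36515556 to 36526094. The share of peaks in such runs was not computed for the rest of chromosome 11. Gaps under 5 kb are common there too, given its median gap of 5522 bp, so the runs are not shown to be particular to this block. The widest peak of the whole sparse end, 852 bp at 36541059 to 36541910, belonged to a run of 3.

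The third block, 37048695 to 37472663, holds the peaks beyond the last span of 200 kb or more. There were 20 of them in 424 kb, or 47.2 per Mb, and 19 of them were narrower than the median of 285 bp before the first long span. The widest was 298 bp at 37111179 to 37111476 and the narrowest 105 bp at 37199485 to 37199589. This is the lowest width on chromosome 11, where 5 peaks have it, and also the lowest on the other chromosomes. The first, at 37048695 to 37048806, had 112 bp, and the last, at 37472499 to 37472663, had 165 bp. Their median was 151 bp (quartiles 119.5 and 194.25 bp), and the mean was 170 bp ± 61.4 (SD over 20 peaks). Peaks under 200 bp were 15 of 20 (75%), against 26.8% before the first long span, and 0 of 20 reached 300 bp, against 1897 of 4086. Of the 20 peaks 13 stood alone, with no neighbour within 5 kb, and 5 formed a run at 37199485 to 37208157. The share of peaks standing alone was not computed for the part before the first long span. The median gap was 12159 bp and the shortest 1289 bp, so no 2 peaks of this block were within 1 kb, whereas 14.5% of the gaps before the first long span were.

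**Figure D3:**
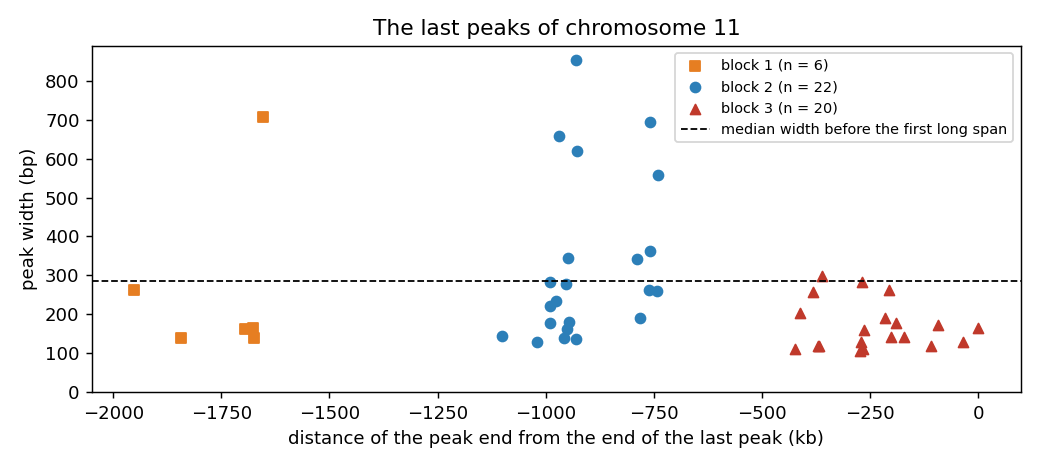
Width (bp) of the 48 peaks beyond the first peak-free span of 200 kb or more on chromosome 11, by distance of each peak's end from the end of the last peak (kb), with the 3 blocks that the long spans separate; the dashed line is the median of 285 bp before the first long span. All but 1 of the 20 peaks of block 3 lie below that line, and block 2 reaches 852 bp.

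On no other chromosome did the peaks after the last such span form so short a set. The other 10 chromosomes held 377 (chromosome 3) to 3084 (chromosome 8) peaks beyond their last span of 200 kb or more, over 3.38 to 28.3 Mb, with median widths of 282 to 310 bp. A count of equal size was therefore taken from runs of 20 neighbouring peaks, which overlap each other and are not separate draws. The run length and the limits of 151 and 298 bp are the third block's own values, so the counts are a description and no test. None of the 45914 such runs on the other chromosomes had a median width of 151 bp or less, their lowest being 168.5 bp on chromosome 5. None had a widest peak of 298 bp or less. On chromosome 11, 8 of 4115 runs reached a median of 151 bp or less, in 2 places. The last 2 runs of the chromosome, which reach back over the last long span to a peak at 36731149, were 1 place, and 6 runs at 17978903 to 18052460 were the other. The lowest median, 134 bp, was in the second place, which overlaps the window of wide peaks described next and takes in 4 of its peaks, 3 of them 1 kb or more.

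Near the middle of chromosome 11, at 48.3% of its span, 44 peaks centred in 18040001 to 18140000 formed the opposite case. They covered 40.0 kb of 100 kb. That was 2.71% of all bases under peaks on chromosome 11 from 1.06% of its peaks. The median width was 358.5 bp, but the distribution was split: 12 peaks of 1 kb or more made up 75.3% of the bases, while 15 of 44 (34.1%) were under 200 bp. The 7 widest peaks of chromosome 11 were all here. After the 3 widest (4743, 4383 and 3814 bp, at 18081949, 18117503 and 18128998) came 3304 bp at 18067325 to 18070628, 2425 bp at 18048880 to 18051304, 2424 bp at 18046324 to 18048747 and 2335 bp at 18060149 to 18062483. The next 3 in width lay elsewhere, with 1756 bp at 8930004 to 8931759, 1641 bp at 19936911 to 19938551 and 1623 bp at 26302287 to 26303909.

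The wide peaks stood in 2 groups with a quiet stretch between them. The left group, 18044245 to 18086691, held 26 peaks, 10 of them 1 kb or more, and 63.3% of its 42.4 kb was under peaks. The right group, 18117503 to 18132811, held 9 peaks with 2 of 1 kb or more and had 76.5% of its 15.3 kb under peaks. Between them, 9 peaks at 18094386 to 18109328 had a median of 137 bp and none was wider than 369 bp. The median gap between the 44 peaks was 349 bp, and 15 of 43 gaps were under 200 bp, the shortest 111 bp. Narrow peaks continued on the left: the 100 kb before the window held 25 peaks with a median of 174 bp, 14 of them under 200 bp and none over 787 bp. On the right the last wide peak was followed by 30001 bp without a peak, and the 100 kb after the window held 6 peaks with a median of 289.5 bp. In fixed windows of 100 kb chromosome 11 had a median of 11 peaks, and the one with most, 18000001 to 18100000, held 46. At the edges of the window the nearest peak outside was 261 bp at 18039728 to 18039988 on the left and 408 bp at 18162813 to 18163220 on the right.

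**Figure D4:**
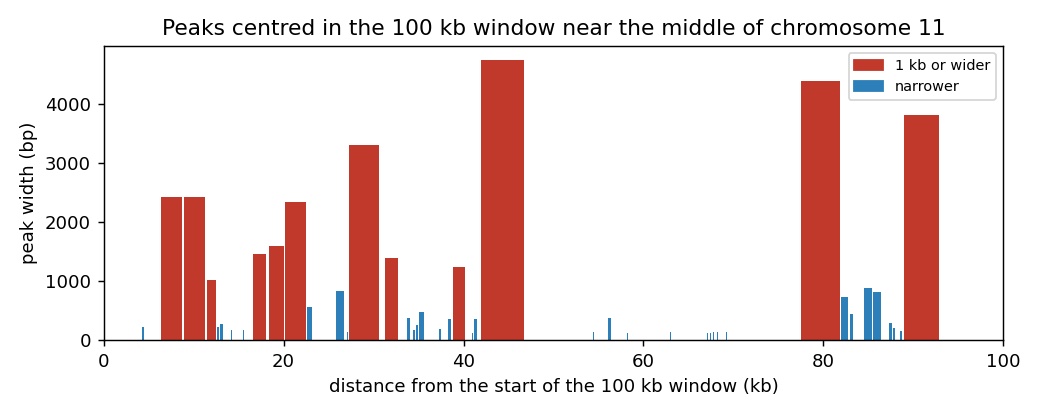
The 44 peaks centred in the 100 kb window, each drawn at its place (kb from the window's start) and with its width (bp) as height, in red where 1 kb or more. The 10 wide peaks of the left group and the 2 of the right group flank 9 narrow peaks of at most 369 bp.

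Leaving out these 44 peaks, 1.06% of those on chromosome 11, changed its upper tail and little else over the whole chromosome. So small a share can move a median only slightly. The window was chosen with earlier results of these data known and holds the 7 widest peaks of chromosome 11. Lower values of the SD, the widest peak and the number of wide peaks without it therefore follow from that choice. The other chromosomes kept all their peaks. The median width was 284 bp with them and 283 bp without them, and the mean was 357 and 351 bp. The SD of width was 260 bp with them, above the 218 to 239 bp of the other 10 chromosomes with all their peaks, and 224 bp without them. The widest peak was 4743 bp with them and 1756 bp without them. Peaks over 2000 bp numbered 7 with them and 0 without them, against 23 on the other chromosomes. The share of peaks of 1 kb or more was 2.44% with them and 2.18% without them. Both values lay within the 1.83% to 2.67% of the other 10 chromosomes, which gave 2.30% when pooled. The share under 200 bp was 27.2% and 27.1%. In the middle 20% of the span the density was 108 per Mb with them and 103 without them, and the share of bases 3.94% and 3.40%.

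Over the whole chromosome gaps responded in the same limited way. The median gap on chromosome 11 was 5538 bp with the window, and 5630 bp over the 4088 gaps that touch none of its peaks. Of the other 10 chromosomes 9 had a longer median gap, up to 6216.5 bp on chromosome 5, and chromosome 2 had a shorter one of 5321 bp. Gaps under 200 bp made up 2.18% of all gaps on chromosome 11 with the window and 1.83% without it, against 1.65% on the other chromosomes. Gaps of 50 kb or more made up 0.653%, against 1.28% on the other chromosomes pooled, and this share was not computed for each of them. Spans of 200 kb or more numbered 3 on chromosome 11 and 2 to 16 on the other 10, with a median of 4. Along the chromosome the median gap widened in consecutive parts of 20%, with 4525, 5499, 5702, 6347.5 and 6456.5 bp. Without the window the third of these was 6449 bp, and the widening then had a level course from the third part on.

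**Figure D5:**
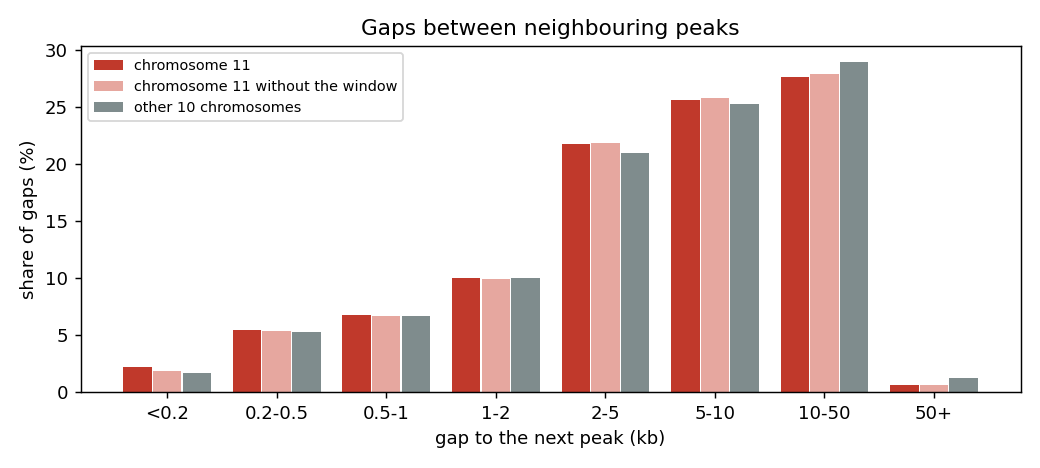
Share of gaps between neighbouring peaks (%) by gap length (kb) on chromosome 11, on chromosome 11 without the gaps that touch the window's peaks, and on the other 10 chromosomes. By factor the shares differ most for gaps under 0.2 kb (2.18%, 1.83% and 1.65%) and gaps of 50 kb or more (0.653%, 0.660% and 1.28%). By percentage points chromosome 11 and the other chromosomes differ most for gaps of 10 to 50 kb (27.6%, 27.9% and 28.9%).

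No peak of chromosome 11 was given a gene. The gene table at hand is of the assembly Vradiata_ver6 of the line VC1973A, and 1715 of the 4134 peaks lay past its last gene on chromosome 11, so that its coordinates were not joined to the list. For the same reason no sequence of the sparse end or of the window is shown, and whether either is rich in repeats, in unsequenced bases or in genes was not tested.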

How the data were processed

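ATAC-seq was run on 18 leaf libraries in 6 groups of 3. The authors deposited 1 list of consensus peaks, with chromosome, start and end in base pairs; 0 columns belong to a library. The submitters' processing notes name MACS3 3.0.3, bedtools 2.28.0 and SAMtools 1.22.1, then fastp 1.0.1 and Bowtie2, and lastly featureCounts 2.1.1, deepTools 3.5.6, R 4.4.3 and edgeR 4.0 (used by the authors). What each did, how strict the peak threshold was, how libraries were joined and multiply mapped reads handled, and which genome build was used is not stated there. A strict threshold thins weak peaks, joining libraries widens peaks, and dropping multiply mapped reads empties repeats. Depth per library is unknown.

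Widths, gaps and densities in bins of 1 Mb and in parts of 20% and 10% of the span (first base to end of the last peak) were computed in Python 3.11.15 (pandas 2.3.3, numpy 2.4.6, SciPy 1.17.1), with peaks placed by their centre and starts counted from 1. The sparsest 2.64 Mb of a chromosome was sought in steps of 10000 bp; on chromosome 11 the sparse end itself was taken. Gaps without the window leave out every gap that touches one of its peaks. The calculations were checked on simulated intervals. Named peaks are the first and last, those bordering long spans, the 10 widest, and the first, last, widest and narrowest beyond the last long span; other peaks, the blocks, the runs and the runs of 20 peaks were chosen after their values were seen. The members, limits and parts were chosen with earlier results of these data known. Only description was planned, so no test was made. T1 and T2, and the times, were not compared, which needs values per library.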

Additional observations from a re-analysis of the deposited data

How the results depend on the processing

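Of 24 alternatives for 6 results, 15 left the value within the exact 95% binomial interval of the main value or, for counts, within 1.5 times, and 9 moved it. The interval treats the peaks of 1 list as independent draws, which they are not. It served only as a yardstick and measures no spread between libraries. Merging peaks closer than 150 bp left 4088 peaks and moved none of the 6 results. Some of the 15 could not have moved. Merging at 150 bp cannot change spans of 200 kb, or the third block, whose shortest gap was 1289 bp. The window lies in the third 20%, so leaving it out cannot change the ratio of the last to the first 20%. A limit of 100 kb kept the same last span, as no gap beyond it exceeded 88008 bp. The tally is therefore no measure of robustness. Leaving out the narrowest 25% of all peaks of the list (201 bp or less) removed 28.0% of the peaks of chromosome 11, against 25.1% of those of the other chromosomes. By its construction it gave 79.4 peaks per Mb, a median width of 354.5 bp and a median gap of 7728 bp. It left 5 of the 20 peaks beyond the last long span and gave 4 spans of 200 kb or more in place of 3. Of the first block only the peaks of 262 and 707 bp remained, and the added span lay between them. The division of the sparse end into 3 blocks thus depends on narrow peaks. With the narrowest peaks left out, the ratio of the last to the first 20% was 0.546 and still the lowest of 11. That ratio was 0.531 for bases under peaks, 0.304 for the last and first 10%, and 0.709 with spans of 200 kb or more taken out of the length, which also gave 115 peaks per Mb. A span limit of 500 kb put 42 peaks beyond the last span, and one of 100 kb left them at 20 and gave 8 spans in place of 3. No paired analysis was possible because no interval has a value per replicate, and none could be left out for that reason. Read depth is unknown, so low coverage and closed chromatin cannot be told apart in the sparse end.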
